A study of Mus musculus with 12 samples.

Results

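Microglia are the resident macrophages of the brain, and 10 genes of microglia and other leukocytes were followed in cortical neurospheres: Aif1, Csf1r, Cx3cr1, C1qa, C1qb, Tyrobp, Fcer1g, Ctss, Cd68 and Laptm5. Members were the array probes annotated to these symbols. There were 9 probes for 9 of the 10 genes, 1 probe each, among 15399 named genes and 21738 probes in all. No probe carried the symbol Csf1r in the annotation used, and this gene was not analysed here. The question was whether transcripts of immune cells were still measured in the spheres.

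Neurospheres are free-floating balls grown from neural progenitors, here from the cortex of mouse embryos of gestational day 12.5. They were grown in serum-free DMEM/F-12 medium with basic fibroblast growth factor and epidermal growth factor (20 ng/ml each) and leukemia inhibitory factor (0.15 ng/ml). The 12 arrays made 4 groups of 3: control cultures at 24 h and 108 h, which per the labels had growth medium only, and prominin cultures at 24 h and 108 h, which also had an adenovirus expressing CD133/R-prominin1. The labels give all prominin cultures 108 h of virus, and the 24 h of the titles was used. The design text speaks of GFP or prominin positive spheres, so an effect of the virus and of prominin-1 cannot be told apart here. Mouse strain, and whether replicates were separate cultures, are not given for the spheres. The p-values therefore measure the spread between these samples, which may be technical. Each array set sphere RNA (Cy5) against 1 shared RNA of whole C57/Bl6 embryos of gestational day 12 (Cy3), without a dye swap.

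Microglia arise from yolk sac progenitors that enter the embryonic brain early, so a dissected cortex can carry them into culture. They depend on signals through the receptor encoded by Csf1r, whose ligands are CSF1 and IL-34. Neither ligand is named among the additives of the medium, and any part of this in the ratios was not tested. Tyrobp and Fcer1g encode adaptor chains that pass signals from activating and Fc receptors through tyrosine motifs. C1qa and C1qb encode chains of complement C1q, the recognition protein that tags material for engulfment. Ctss, Cd68 and Laptm5 encode proteins of endosomes and lysosomes. Cx3cr1 encodes the fractalkine receptor, and Aif1 encodes Iba1, the actin-binding protein used to stain microglia. Whole embryos contain macrophages and blood too, so a low ratio says that a transcript was scarcer in sphere RNA than in embryo RNA, relative to the median probe. It does not give the amount in the spheres. Fewer cells of a type and less RNA per cell cannot be told apart in such samples.

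Promoter sequence is shown for the members with the lowest and the most completely measured ratios, because the myeloid transcription factor PU.1 binds sites with a purine-rich GGAA core in many genes of this kind. The windows are the 250 bases before the RefSeq start site (GRCm38.p6), written 5′ to 3′ on the strand of the gene, with matches to GAGGAA, on either strand, in capitals. The Fcer1g window lies on the minus strand at chr1:171234350-171234599, that of Laptm5 on the plus strand at chr4:130913066-130913315 and that of Aif1 on the minus strand at chr17:35176053-35176302.
Fcer1g: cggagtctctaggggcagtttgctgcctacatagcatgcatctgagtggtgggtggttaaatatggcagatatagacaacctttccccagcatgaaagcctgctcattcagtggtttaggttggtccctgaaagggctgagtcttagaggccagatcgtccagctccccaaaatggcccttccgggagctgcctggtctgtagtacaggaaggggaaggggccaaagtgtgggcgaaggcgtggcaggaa
Laptm5: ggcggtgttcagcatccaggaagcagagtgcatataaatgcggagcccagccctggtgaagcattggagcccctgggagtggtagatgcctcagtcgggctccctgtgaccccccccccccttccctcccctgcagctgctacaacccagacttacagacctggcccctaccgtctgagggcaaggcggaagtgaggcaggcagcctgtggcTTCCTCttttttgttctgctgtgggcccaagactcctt
Aif1: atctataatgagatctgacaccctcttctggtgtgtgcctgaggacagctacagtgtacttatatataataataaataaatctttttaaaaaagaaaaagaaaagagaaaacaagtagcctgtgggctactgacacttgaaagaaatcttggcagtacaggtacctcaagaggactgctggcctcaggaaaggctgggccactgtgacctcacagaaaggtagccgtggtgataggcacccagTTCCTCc
No match to GAGGAA lay in the Fcer1g window, which does hold GGAA within other letters. Only GAGGAA was searched for. Laptm5 held 1 match, 38 bases upstream of the start site, and Aif1 held 1 match, 7 bases upstream, both as TTCCTC, which is GAGGAA on the other strand. A promoter window was found for 7 of the 9 measured members, and 5 of these 7 held a match, against 23.3% of 32851 mouse promoter windows of this length. A match describes the letters and is no sign of binding. The deposited values hold no binding data.

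Values are log2 ratios of sphere to embryo RNA, centred so that 0 is the array's median over the 4532 probes that every array measured. A value of −1 thus means a ratio 2-fold below that of the median probe. The deposited array medians ran from −2.59 to −0.84. Exact zeros (4986 to 8794 per array) and a top code of 16.61 (32 to 2540 per array) were taken as missing. The direction of the ratio is not stated. It was read from genes of known source. Of 13 probes of neural progenitors and glia 12 were called above the median probe and 0 below, whereas 4 of 4 erythroid probes were called below. Over all probes tested, 30.4% were called above and 25.5% below. Prom1 itself was measured on 9 of 12 arrays and passed at neither time (−2.23 at 24 h and 2.58 at 108 h, limma adjusted p = 0.998 and 0.717), so the prominin labels have no check here.

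Of the 108 values that 9 probes on 12 arrays could give, 83 were measured, 22 were exact zeros and 3 were top codes. Zeros made up 20.4% of member values at 24 h and 20.4% at 108 h, against 32.3% and 24.2% over all probes. Only Aif1 was measured on all 12 arrays. Ratios of small whole numbers (both at most 10) are those that spots of a few intensity units would give. They made up 22.5% of the members' measured values at 24 h and 2.33% at 108 h, against 44.8% and 6.06% over all probes. Ratios beyond 10-fold cannot show this mark, and spot intensities were not used here, so whether a low value came from a sample signal above background is unknown.

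The adaptor chains gave the lowest ratios together with Laptm5. Fcer1g, the common gamma chain of Fc receptors, lay in controls at 24 h at −2.96, −4.04 and −3.96, and in the measured prominin cultures at 24 h at −4.97 and −5.90. At 108 h it lay at −3.62, −5.03 and −3.67 in controls and −4.19 and −4.32 in prominin cultures. All 10 measured values were below the median probe, and the mean was −4.27 ± 0.84 (SD, n = 10). This mean exceeded that of 1.94% of the 16842 probes with at least 6 values, whose own median level was 0.76. Tyrobp, the adaptor DAP12, lay at −2.76, −2.11 and −3.78 in controls at 24 h and at −3.55 in the 1 measured prominin culture of that time. At 108 h it lay at −5.09 and −3.64 in controls and at −3.01, −4.96 and −5.27 in prominin cultures. Its mean of −3.80 ± 1.11 (SD, n = 9) exceeded that of 2.73% of probes, with 9 of 9 arrays below 0.

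**Figure D1:**
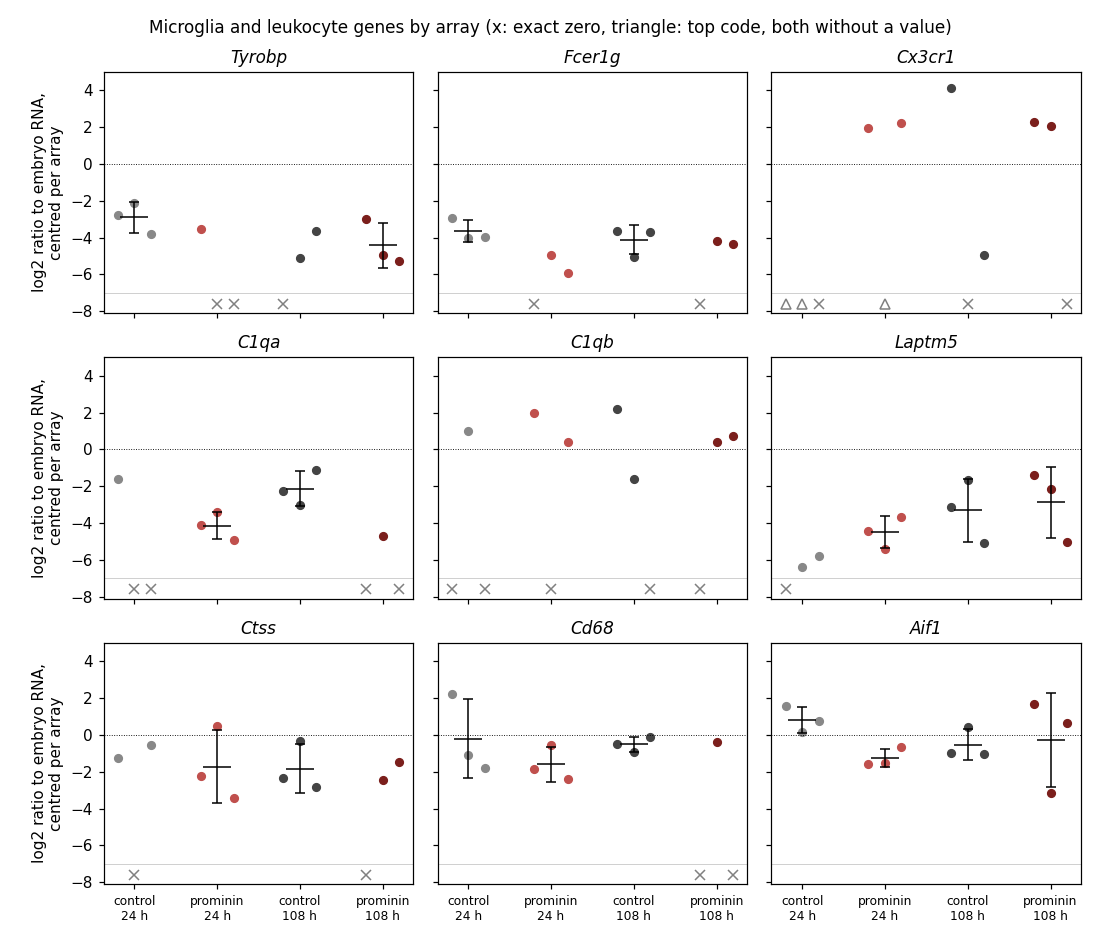
Centred log2 ratios to embryo RNA of the 9 measured genes on each array, by group; bars show mean and SD where all 3 arrays of a group had a value, crosses mark exact zeros and triangles the top code, neither of which is a value. Fcer1g, Tyrobp, Laptm5 and C1qa lie below 0 on every array that measured them, whereas Cx3cr1 and C1qb lie mostly above 0 and have many gaps.

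The chains of C1q did not lie together. C1qa was at −1.58 on the 1 measured control array of 24 h, at −4.10, −3.42 and −4.90 in prominin cultures of 24 h, at −2.26, −3.01 and −1.11 in controls of 108 h and at −4.70 on 1 prominin array of 108 h. All 8 values were below the median probe, with a mean of −3.14 ± 1.41 (SD, n = 8). C1qb, the partner chain, was at 1.02 on 1 control array of 24 h, at 1.96 and 0.40 in prominin cultures of 24 h, at 2.18 and −1.59 in controls of 108 h and at 0.39 and 0.71 in prominin cultures of 108 h. Its mean was 0.73 ± 1.25 (SD, n = 7), with 6 of 7 values above 0, and 3 of the 7 were small whole-number ratios. None of the C1qa values, 0 of 8, was such a ratio, but most of them were beyond 10-fold before centring and could not show this mark. C1qc, the remaining chain and not a member, was at −3.71 ± 1.12 (SD, n = 9), below 0 on 9 of 9 arrays. It was singled out after its values were seen.

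Endosome and lysosome genes spread widely. Laptm5, a lysosomal membrane protein of blood cells, was at −6.36 and −5.79 in controls at 24 h and at −4.44, −5.39 and −3.67 in prominin cultures at 24 h. At 108 h it was at −3.15, −1.67 and −5.07 in controls and at −1.38, −2.18 and −5.05 in prominin cultures. Its mean was −4.01 ± 1.72 (SD, n = 11), and its highest values came from 108 h arrays. Ctss, the protease cathepsin S, averaged −1.65 ± 1.23 (SD, n = 10). Its values were −1.28 and −0.57 in controls and −2.24, 0.46 and −3.42 in prominin cultures at 24 h, then −2.33, −0.31 and −2.85 in controls and −2.45 and −1.45 in prominin cultures at 108 h. Treatments overlapped at each time and times within each treatment. Cd68, the scavenger receptor macrosialin, averaged −0.74 ± 1.28 (SD, n = 10), with 9 of 10 values below 0. Its control array 1 of 24 h stood apart at 2.23, against −1.07 and −1.80 on the other control arrays of that time, and the prominin arrays gave −1.87, −0.55 and −2.38. At 108 h Cd68 was at −0.49, −0.92 and −0.11 in controls and at −0.39 on the 1 measured prominin array.

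Aif1 lay on both sides of the median probe. It was at 1.56, 0.15 and 0.73 in controls and −1.59, −1.51 and −0.67 in prominin cultures at 24 h. At 108 h it was at −1.003, 0.43 and −1.06 in controls and at 1.66, −3.16 and 0.63 in prominin cultures. The mean was −0.32 ± 1.43 (SD, n = 12), with 6 arrays above and 6 below 0, and the prominin arrays of 108 h covered the whole range of the others and more. Cx3cr1 was measured on 6 arrays only. It was at 1.96 and 2.21 in prominin cultures of 24 h, at 4.12 and −4.93 in controls of 108 h and at 2.26 and 2.06 in prominin cultures of 108 h. No control array of 24 h gave a value, 2 of them holding the top code and 1 a zero, and 3 of the 6 measured values were small whole-number ratios.

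By mean ratio the members ran upward from Fcer1g (−4.27) through Laptm5 (−4.01), Tyrobp (−3.80), C1qa (−3.14), Ctss (−1.65), Cd68 (−0.74), Aif1 (−0.32) and C1qb (0.73) to Cx3cr1 (1.28). This is an order of ratios to the embryo and not of transcript amounts. The steps between neighbours from Fcer1g to C1qa, from Ctss to Aif1 and from Aif1 to Cx3cr1 were each smaller than the SD of both neighbours. The step from C1qa to Ctss was larger than either SD (1.41 and 1.23).

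Tested over the 4 groups, 3 of the 4 members with at least 2 values in every group lay below the median probe, where 55.8% of the 9155 probes tested were called, 25.5% lower and 30.4% higher. Fcer1g was 20.6-fold below it (log2 level −4.36, SE 0.26, limma adjusted p = 9.7e-07), Laptm5 18.2-fold (−4.19, SE 0.41, limma adjusted p = 1.3e-05) and Ctss 3.05-fold (−1.61, SE 0.42, limma adjusted p = 0.00937). Aif1 did not pass, at −0.32 (SE 0.38, limma adjusted p = 0.485, 95% interval −1.15 to 0.51). With 1 value per group as the minimum, 8 members were tested and 5 were called lower, against 16.7% of 15907 probes called lower and 28% higher. Tyrobp (−3.80, SE 0.42, limma adjusted p = 0.000151) and C1qa (−3.14, SE 0.43, limma adjusted p = 0.000945) were then added. C1qb (0.76, SE 0.58) and Cd68 (−0.68, SE 0.47) did not pass, with limma adjusted p of 0.301 and 0.249. These levels mix any dye effect with the difference between spheres and embryo, since the dyes were not swapped.

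The level also depends on what 0 means. Against the embryo reference itself, without centring, 4 of 4 tested members were called lower, as were 61.9% of all probes. Aif1 was then at −1.92 (SE 0.36, limma adjusted p = 0.000433), and below 0 on 12 of 12 arrays. Over all its alternatives the adjusted p of Aif1 ran from 0.000433 to 0.899. Fcer1g was at −5.89 (SE 0.25) on that scale. With exact zeros kept as ratios of 1, Ctss no longer passed (−0.99, SE 0.51, limma adjusted p = 0.101) and Fcer1g was at −3.22 (SE 0.70, limma adjusted p = 0.00192). The adjusted p ran from 0.00011 to 0.137 for Ctss over its 18 alternatives and from 3.6e-08 to 0.00893 for Fcer1g over its 19. Uncentred means of the members that could not be tested with 2 values per group were −5.55 for Tyrobp, −4.48 for C1qa, −2.16 for Cd68, −0.79 for C1qb and −0.28 for Cx3cr1. The mean of the measured ratios of each of the 9 members was thus below that of the embryo reference. For Cx3cr1 and C1qb this was by less than their SD (3.11 and 1.19) and on only 2 of 6 and 5 of 7 arrays. The mean of Cx3cr1 includes a value of −6.25 on a control array of 108 h and leaves out 3 top codes. With both codes kept, the centred level of Cx3cr1 was 5.61 (SE 1.88).

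Prominin and control cultures were compared at 24 h, and 0 of the 4 tested members passed, as did 0% of all probes by limma (419 of 9155 at an unadjusted p under 0.05). Fcer1g had a difference of −1.78 (SE 0.73, 95% interval −3.43 to −0.14), Aif1 of −2.07 (SE 1.07, interval −4.41 to 0.27), Ctss of −0.81 (SE 1.19) and Laptm5 of 1.58 (SE 1.22), each with a limma adjusted p of 0.998. The groups did not overlap for 3 of these 4, with Fcer1g and Aif1 lower and Laptm5 higher in prominin cultures, against 16.5% of all probes. Kept zeros turned Fcer1g to 0.49 and Laptm5 to −1.13. C1qa had only 1 control value at 24 h, which lay above its 3 prominin values.

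At 108 h the differences between prominin and control in the 4 members tested were smaller than their SE, and 0 of 4 passed (0% of all probes by limma, 624 at an unadjusted p under 0.05). They were 0.43 for Laptm5 (SE 1.09, limma adjusted p = 0.974, 95% interval −1.98 to 2.84), 0.26 for Aif1 (SE 1.07, interval −2.08 to 2.59), −0.12 for Ctss (SE 1.19, interval −2.79 to 2.54) and −0.15 for Fcer1g (SE 0.73, interval −1.79 to 1.49). Prominin and control values overlapped for 4 of the 4 members at this time. They did not overlap for 15.8% of all probes. The intervals leave room for changes of over 4-fold in Laptm5, Aif1 and Ctss. Averaged over both times, 0 of 4 members passed (0% of all probes), with Laptm5 at 1.00 (SE 0.82), Fcer1g at −0.97 (SE 0.52), Aif1 at −0.91 (SE 0.75) and Ctss at −0.47 (SE 0.84). The change of the prominin difference from 24 h to 108 h also gave 0 of 4 (0% of all probes), and its largest value among these 4 was Aif1 at 2.33 (SE 1.51, limma adjusted p = 0.828).

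With 1 value per group as the minimum, 0 of 8 members passed in any comparison of prominin with control. C1qa, which then rests on 1 control value at 24 h and 1 prominin value at 108 h, had the largest prominin differences of the 8 members. They were −2.56 at 24 h (SE 1.23), −2.57 at 108 h (SE 1.23) and −2.56 averaged over both times (SE 0.87, unadjusted p = 0.0193 and limma adjusted p = 0.952). With zeros kept the value of C1qa was −4.78 at 24 h (SE 1.67), 2.20 at 108 h (SE 1.67) and −1.29 averaged (SE 1.18), so its direction at 108 h turned.

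**Figure D2:**
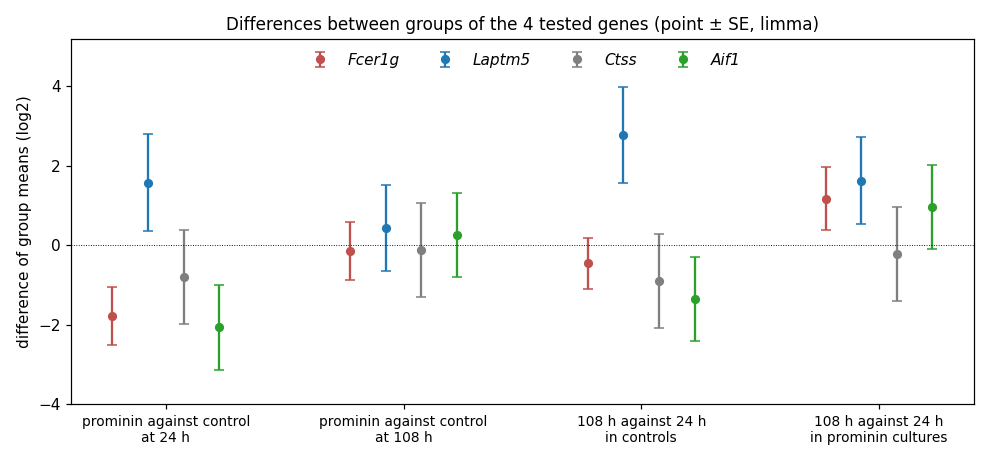
Differences between group means on the log2 scale with their SE for the 4 members tested, in the 4 comparisons between pairs of groups. Laptm5 at 108 h against 24 h in controls has the largest value, 2.78, and no point passed after adjustment over all probes.

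With culture time Laptm5 had the largest values among the 4 members tested, and none passed. Averaged over both treatments it was 2.20 higher at 108 h than at 24 h (SE 0.82, 4.60-fold, 95% interval 0.39 to 4.01), with a limma adjusted p of 0.412 (0.269 to 0.929 over 21 alternatives), where 5 of 9155 probes (0.0546%) were called. In controls the value was 2.78 (SE 1.22, limma adjusted p = 0.707; 0% of probes called), and all 3 arrays of 108 h lay above both measured arrays of 24 h, a separation that 18.6% of all probes showed in 1 direction or the other. In prominin cultures it was 1.63 (SE 1.09, limma adjusted p = 0.71; 0.0218% of probes called) and the groups overlapped. Its size rested on leaving out zeros, of which Laptm5 had 1, on a control array of 24 h. With that zero kept the value was 0.07 in controls (SE 1.89) and 0.85 averaged over both treatments (SE 1.34), where Cd68 was at 1.41 (SE 0.79) and Tyrobp at −1.76 (SE 1.14). Fcer1g in prominin cultures was 1.18 higher at 108 h (SE 0.80, limma adjusted p = 0.717) without overlap, against 19.6% of probes, and −0.46 in controls (SE 0.65). The averaged time values of the other members were 0.36 for Fcer1g (SE 0.52), −0.20 for Aif1 (SE 0.75) and −0.56 for Ctss (SE 0.84). The 24 h arrays held 31.6 to 56.0% small whole-number ratios and the 108 h arrays 3.30 to 9.62%, and the part of this in the time differences was not tested.

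Genes around the members did not share 1 level, and their lists were written with earlier results of these data known. Of all probes tested, 30.4% were called above the median probe and 25.5% below. Among ligands and receptors of the CSF1, fractalkine and TGF-beta systems, 4 of 8 probes were tested. Tgfbr2, a TGF-beta receptor chain, was called below the median probe at −2.10 (SE 0.37) on 1 probe. Its other probe, which could not be tested, averaged 0.99 ± 1.47 (SD, n = 6). The ligand genes Csf1 (0.71, SE 0.30), Cx3cl1 (−0.18, SE 0.54) and Tgfb1 (−0.91, SE 0.47) did not pass. Of ITAM and Fc receptor signalling genes only 3 of 18 probes could be tested, and Syk, the kinase that binds phosphorylated ITAMs, was called above at 1.88 (SE 0.50), with 6 of its 9 values small whole-number ratios. Lcp2, an adaptor of this pathway, was at 0.33 (SE 0.67). Trem2, a receptor that signals through the Tyrobp adaptor, was at −0.01 (SE 0.29) on the probe measured on all 12 arrays. Its other probes, which could not be tested, averaged 1.33 ± 2.04 (SD, n = 8) and 0.96 ± 1.89 (SD, n = 5). Complement genes gave 1 call below in 3 tested probes, the C1 inhibitor gene Serping1 at −1.35 (SE 0.28), beside Cd55 (−0.21, SE 0.28) and C5ar1 (0.86, SE 0.59). Other probes of Cd55, which could not be tested, averaged 2.60 and 1.18.

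Among all 9155 probes tested, 30.4% were called above the median probe and 25.5% below. Of phagosome and lysosome genes, which many cell types use, 14 probes were tested, with 6 called above and 4 below. Among those called above was 1 probe of Lyz2 (1.45, SE 0.45). Its other probe could not be tested and lay at −5.70 ± 1.38 (SD, n = 9), below the median probe on 9 of 9 arrays. Lyz2 was named after these values were seen. Gpnmb, a membrane glycoprotein of phagocytes and pigment cells, was at 2.93 (SE 0.33), and Lamp1, the common lysosomal membrane protein, at 1.65 (SE 0.19). Ctsc, cathepsin C, was at −1.79 (SE 0.31), and Ctsz did not pass at 1.73 (SE 0.85). Other microglia and macrophage markers gave 3 calls above and 1 below in 9 tested probes. Mrc1, the mannose receptor of tissue macrophages, was below at −1.91 (SE 0.40). P2ry13, a purine receptor of microglia, was above at 2.08 (SE 0.35) and Ptprc, which encodes the leukocyte antigen CD45, at 1.71 (SE 0.52). Each of these 2 had 4 small whole-number ratios, among 9 and 11 values. Msr1 (1.17, SE 0.47) did not pass. The median level was −2.90 over the 4 tested of 9 member probes and 0.88 over the tested probes of these other markers. Over all probes tested it was 0.23. Probes with at least 6 values took in all 9 members. Their mean ratios had a median of −1.65 for the members, 0.80 for these other markers and 0.76 for all such probes.

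Granulocyte and mast cell genes were called below the median probe in 7 of 7 tested probes, against 25.5% of all probes tested. Their median level was −3.42. S100a9, a calcium-binding protein of neutrophils, was at −6.40 (SE 0.39), Ngp at −5.28 (SE 0.44), Camp at −3.60 (SE 0.35) and the myeloperoxidase gene Mpo at −3.42 (SE 0.35). Lymphocyte genes were not low in this way, with 0 of 8 tested probes called below, 2 called above and a median of 0.80. Over all probes tested, 30.4% were called above. Pax5, a B cell transcription factor, was at 1.29 (SE 0.25), and Ms4a1 (1.38, SE 0.69) and Cd79a (1.00, SE 0.57) did not pass. Small whole-number ratios made up 31.9% of the measured lymphocyte values, 3.19% of the granulocyte and mast cell values and 12.0% of the members' values. Ratios beyond 10-fold cannot show this mark, so low ratios by themselves lower such a share. The part of small whole-number ratios in the levels near or above the median probe was not tested.

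**Figure D3:**
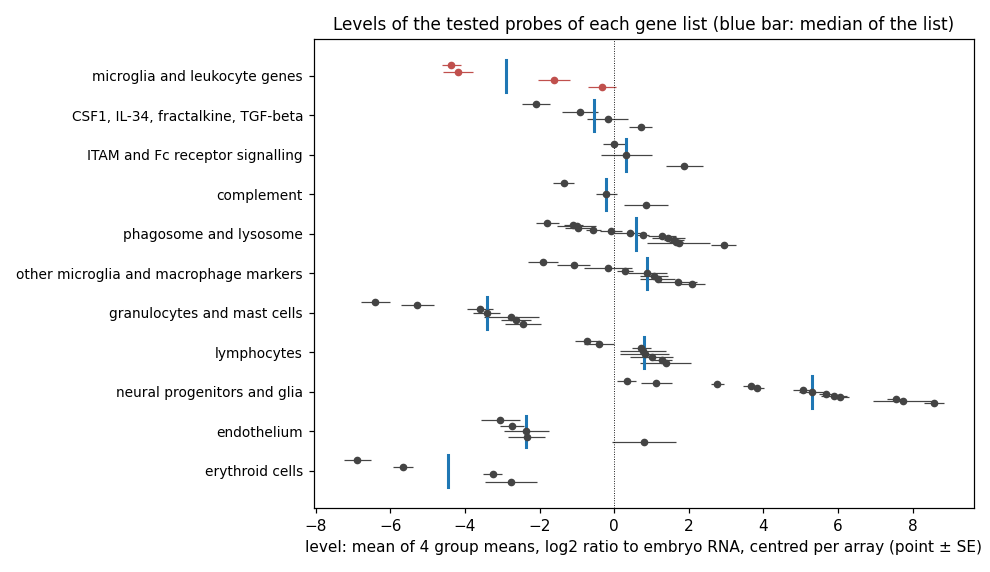
Level of every tested probe of the 11 gene lists, as the mean of the 4 group means on the centred log2 scale with its SE; the blue bar is the median of the list. Granulocyte, erythroid and most endothelial probes lie below 0, neural probes above it, and the 4 member probes run from −4.36 to −0.32. The direction of the ratio was read from the erythroid and neural lists.

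Erythroid markers were low as well, and endothelial markers were divided. The direction of the ratio was read from the erythroid and neural lists, so the sides on which these lists lie are no separate result. In endothelium 4 of 5 tested probes were called below, against 25.5% of all probes tested, and the median was −2.36. The called genes were Cldn5 (−3.05, SE 0.51), Kdr (−2.74, SE 0.32), Emcn (−2.36, SE 0.61) and Esam (−2.35, SE 0.50). The remaining tested gene, Flt1, a VEGF receptor, did not pass at 0.80 (SE 0.87), above 0 on 7 of 10 arrays. Of the endothelial probes that could not be tested, Eng (−3.22), Pecam1 (−2.45), Cdh5 (−4.60) and Tek (−1.02) had means below the median probe, and Tie1 (1.70) and both Vwf probes (1.67 and 2.59) had means above it. Flt1 and these untested genes were named after their values were seen. Erythroid probes had a median of −4.46, with Hbb-y at −6.88 (SE 0.36), Hba-x at −5.67 (SE 0.26), Hba-a1 at −3.25 (SE 0.26) and Slc4a1 at −2.76 (SE 0.70). Hba-a1, an alpha globin gene with a near-identical copy that may share its probe, was the 1 listed gene called with culture time, 4.54 higher at 108 h averaged over both treatments (SE 0.51, limma adjusted p = 0.00848). At the other end Gfap was at 8.56 (SE 0.26), S100b at 7.54 (SE 0.23) and Olig1 at 6.06 (SE 0.23). Pax6 was at 7.75 (SE 0.81) on 1 probe and 1.13 (SE 0.42) on the other. Another probe of Gfap, which could not be tested, averaged 3.64 ± 2.64 (SD, n = 6).

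The profiles most like that of Aif1 were those of Mgat1, a glycosyltransferase gene, and Msh6, a DNA mismatch repair gene. Likeness was the mean absolute difference over the 12 arrays between profiles scaled to mean 0 and SD 1, compared over 4228 named probes measured on all arrays. It was 0.40 for both Mgat1 and Msh6, against a median of 1.08 over those probes. No other member was measured on all 12 arrays, so none could be compared in this way.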

How the data were processed

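The deposited table holds log2 ratios per probe on 12 two-colour arrays, each in its own column. How the arrays were scanned and normalized is not given in the sources used here. Values were checked to hold 2 codes, exact 0 and 16.61, which were set to missing. From each array's values its median over the 4532 probes common to every array was subtracted.

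Symbols were read from the probe annotation given with the series, updated by gene ID to RefSeq symbols (15943 probes), kept as annotated (677) or named by RefSeq accession (324). Probes with several symbols (113) or none (4681) were left unnamed. This annotation can be old.

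In every group 2 or more values were required, which left 9155 probes. These entered a limma fit (limma 3.58.1, R 4.3.3) with group means and 8 comparisons, moderated variance, two-sided, Benjamini-Hochberg adjustment over all probes of a comparison, threshold 0.05. The level is the mean of the 4 group means against 0. The number of arrays limits the precision. With 3 arrays against 3 an exact permutation test cannot go below 0.1. Simulated data with 9155 probes, for the time difference averaged over both treatments, had 0, 14, 74 and 96% of changes of 1, 2, 4 and 6 on the log2 scale recovered, with 4 false calls.

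The members and lists were chosen with earlier results of these data known. Named were all members, genes of each list called between groups, up to 4 of each list by distance from the median probe, and the 2 profiles nearest to a member measured on all arrays. The values of 1 gene named by this rule are not reported here. Alternatives changed centring, scaling, codes, filter, variance, probe averaging, replicate block and the arrays included, 24 settings in all. No per-array column lay outside the series. Replicate numbers were not treated as pairs, since not every same-number correlation of deviations was over 0.1.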

Additional observations from a re-analysis of the deposited data

How the results depend on the processing

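No member was called between groups under any of the 24 alternatives. The count of members called for their level was 3 in the reported setting. It was 5 with zeros and top code kept (2 above, C1qb and Cx3cr1, and 3 below). With zeros kept but not the top code, 1 member was called above and 3 below. The 1 above was C1qb at 1.14 (SE 0.35, limma adjusted p = 0.0136). The count was 5 with at least 1 value in every group and 1 to 3 without 1 array. It was 0 among the probes measured on all 12 arrays (Aif1 alone was tested). The count of 1, without control 24 h replicate 3, prominin 108 h replicate 2 or prominin 108 h replicate 3, came with only 2 members left to test. Fcer1g and Laptm5 were called below in each setting that tested them (adjusted p by limma up to 0.00893 and 0.00481), and Ctss in each but those with zeros kept (up to 0.137). Without centring Aif1 was also called.

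Of 344 values recomputed outside the leave-one-out fits 28 changed sign, all of them differences between groups that were not called. With zeros kept, with or without the top code, the prominin difference at 24 h was 0.49 for Fcer1g and −1.13 for Laptm5, at 108 h 2.13 for Fcer1g and 1.39 for Ctss, and averaged over both times 1.31 for Fcer1g and −0.35 for Laptm5. The change of the prominin difference was 1.56 for Laptm5, and 108 h against 24 h in prominin cultures 1.30 for Ctss. The time difference of Laptm5 kept its sign but was 0.07 in controls and 0.85 averaged. Without centring the 108 h prominin difference was −0.82 for Aif1 and −0.65 for Laptm5, its change from 24 h −0.044 for Fcer1g and −0.80 for Ctss, and the time difference 0.23 for Fcer1g in controls and −0.10 for Aif1 in prominin cultures. Centred on each array's own median, the 108 h prominin difference was 0.11 for Fcer1g and 0.14 for Ctss. After quantile normalization it was 0.011 and 0.10, and the time difference of Fcer1g in controls was 0.12. Beyond the scaling and the codes themselves, the cause was not tested.

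Without 1 array in turn, values that changed sign ran as follows. The 24 h prominin difference of Ctss ran from −1.89 to 0.041. The 108 h one ran from −0.72 to 1.69 for Aif1, −0.61 to 0.10 for Fcer1g, −0.63 to 0.64 for Ctss and −0.46 to 1.52 for Laptm5, and its change from 24 h from −0.16 to 1.78 for Ctss. Time differences ran from −0.70 to 0.014 for Fcer1g in controls, −0.002 to 2.40 for Aif1 and −1.06 to 0.89 for Ctss in prominin cultures, and −0.67 to 0.53 for Aif1 averaged over both treatments. The level of Aif1 ran from −0.56 to 0.040.

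The labels do not say that a replicate number marks a shared source. Deviations of same-numbered arrays correlated weakly (−0.07 to 0.12, above 0 in 15 of 18 pairs and over 0.1 in 3), against −0.12 to 0.12 for other numbers. The highest correlation was with an array of the same number for 9 of 12 arrays, a hint of pairing from the data and not from the design. With the replicate block 3 members were called for their level and none between groups, and Fcer1g at 108 h was 0.15. Over all probes, calls for time averaged over treatments were 5 as reported, 2 with the block or with 1 value per group, 16 with array weights, 22 without small whole-number ratios, 26 with both codes kept, 34 among probes measured on all arrays and 36 without moderation. Leaving out 1 array gave 2 to 9. In prominin cultures, calls with time were 2 as reported, 7 without centring or moderation, 16 with both codes kept, 17 without small whole-number ratios and 21 among probes measured on all arrays. With both codes kept 25 probes were called between prominin and control at 24 h, where 0 were as reported. Level calls were 5113 as reported, 14331 with zeros kept, 9895 with both codes kept and 2797 among probes measured on all arrays.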

Other observations

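Several leukocyte genes outside the members were measured too rarely to be tested and are given as values. They were singled out after their values were seen, and none of their differences between groups was tested. Fcgr3, an Fc receptor that signals through the chain encoded by Fcer1g, was at −3.67 ± 1.49 (SD, n = 9), below the median probe on 9 of 9 arrays. The other Fc receptor genes of the lists were not low. Fcgr1 was at 2.55 ± 2.79 (SD, n = 5), Fcer1a at 1.11 ± 1.62 (SD, n = 7) and Fcgr2b at 1.81 ± 2.54 (SD, n = 3). Csf2ra, a chain of the GM-CSF receptor, was at −3.09 ± 1.07 (SD, n = 8), below on 8 of 8. Vav1, a signalling protein of blood cells, was below on 7 of 7 arrays with a mean of −2.63 ± 1.57 (SD, n = 7), and Coro1a, an actin-binding protein of leukocytes, was below on 9 of 9 at −1.96 ± 1.13 (SD, n = 9). Adgre1, which encodes the macrophage antigen F4/80, was at −1.92 ± 1.92 (SD, n = 6), below on 5 of 6.

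Other such genes were not low. Spi1, which encodes PU.1, was at −0.62 ± 2.05 (SD, n = 7), below on 4 of 7 arrays. Itgam, the integrin CD11b of microglia and other myeloid cells, was at 0.00 ± 1.18 (SD, n = 9), below on 4 of 9. Trem1, an activating receptor of myeloid cells that uses the Tyrobp adaptor, was at 4.09 ± 0.84 (SD, n = 10), above on each of its 10 measured arrays. Among probes with at least 6 values the mean was below 0 for 7 of 9 member probes, 4 of 12 probes of ITAM and Fc receptor signalling, 8 of 24 of other microglia and macrophage markers and 9 of 9 of granulocytes and mast cells, against 32.8% of all 16842 such probes.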
